A study of Mus musculus with 12 samples.

Results

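The proteasome is the barrel-shaped protease that degrades ubiquitin-tagged proteins. Its genes were taken as every row of the 2 deposited RNA-seq tables whose symbol starts with Psma to Psmg followed by a digit, 50 of 24015 gene symbols. They were 8 α-ring genes and 7 constitutive β-ring genes of the 20S core, 5 immunoproteasome genes (Psmb8, Psmb9, Psmb10, Psme1 and Psme2), the thymic subunit gene Psmb11, 6 ATPases and 11 non-ATPase subunits of the 19S cap, 3 other activators or inhibitors, and 7 assembly chaperones. The remaining 2 were Psmc3ip, which shares the name but codes for a recombination protein, and Psme2b, a near-identical copy of Psme2.

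RNA was sequenced from primary mouse B cells of WT and T58A littermates, in 4 groups of 3 libraries. T58A is an allele of the transcription factor MYC in which the threonine at a phosphorylation site that promotes MYC turnover is an alanine. Immature B cells of bone marrow were cultured for 48 hours with IL7, a growth factor of B-cell precursors, and mature B cells of spleen for 48 hours with lipopolysaccharide (LPS), which drives them to divide and become antibody-secreting cells. Both cultures used RPMI with serum, and ages are not given in the sources used here. The titles number WT and T58A libraries as pairs, but 2 LPS T58A columns carry the same header and are named here by their order, as the first or the second unnumbered column.

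In the constitutive core, the β subunits Psmb6, Psmb7 and Psmb5 carry the caspase-like, trypsin-like and chymotrypsin-like active sites. Interferon signalling induces Psmb9, Psmb10 and Psmb8, which replace them in the same order as new particles are built, and lymphocytes carry such immunoproteasomes also at rest. The 19S cap binds, deubiquitinates, unfolds and threads the substrate, while Psme1 with Psme2, Psme3 and Psme4 form alternative caps that do not need ubiquitin.

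The stretches before the transcription start of 4 of the genes called in a comparison below are shown first. Others that were called, Psmb9 among them, are not printed. MYC with its partner MAX binds the E-box CACGTG, ETS-family factors bind CGGAAG, and NRF1, the factor that raises proteasome genes when proteolysis is short, binds sites of the form TGACNNNGC. Capitals mark these motifs, read on both strands. The sequences are from RefSeq on GRCm38.p6, 250 bases each, 5′ to 3′ on the gene's strand, which is the plus strand for all of them: Psme3 at chr11:101315963-101316212, Psmd1 at chr1:86064369-86064618, Psmd14 at chr2:61711444-61711693 and Psmb6 at chr11:70525107-70525356.
Psme3: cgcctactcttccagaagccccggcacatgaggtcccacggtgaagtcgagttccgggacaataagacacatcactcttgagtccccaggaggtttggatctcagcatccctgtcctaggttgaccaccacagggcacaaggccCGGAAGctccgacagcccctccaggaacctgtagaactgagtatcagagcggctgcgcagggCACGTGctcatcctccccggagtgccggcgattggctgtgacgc
Psmd1: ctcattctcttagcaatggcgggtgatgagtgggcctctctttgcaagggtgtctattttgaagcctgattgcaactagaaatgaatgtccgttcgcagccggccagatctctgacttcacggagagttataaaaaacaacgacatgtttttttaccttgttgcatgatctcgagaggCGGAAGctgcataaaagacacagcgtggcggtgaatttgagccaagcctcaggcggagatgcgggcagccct
Psmd14: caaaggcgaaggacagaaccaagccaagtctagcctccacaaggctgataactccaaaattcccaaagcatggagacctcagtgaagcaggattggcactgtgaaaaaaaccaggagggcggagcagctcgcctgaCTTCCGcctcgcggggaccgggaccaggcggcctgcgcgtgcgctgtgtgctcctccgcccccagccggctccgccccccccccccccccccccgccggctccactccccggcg
Psmb6: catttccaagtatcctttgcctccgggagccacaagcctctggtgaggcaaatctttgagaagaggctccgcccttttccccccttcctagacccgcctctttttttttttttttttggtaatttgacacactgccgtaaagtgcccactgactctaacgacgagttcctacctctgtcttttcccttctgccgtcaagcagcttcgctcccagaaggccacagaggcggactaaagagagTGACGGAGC
Psme3 holds an E-box 44 to 39 bases before its start and an ETS motif 106 to 101 bases before it. Psmd1 holds an ETS motif 72 to 67 bases before its start, and non-coding transcripts of that gene in GENCODE begin inside the window. In Psmd14 the ETS motif lies 114 to 109 bases upstream on the opposite strand, and in Psmb6 the NRF1-type motif covers the last 9 bases.

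Promoter windows of 300 bases, 250 before and 50 after the start, were on hand for 42 of the 50 genes. The E-box was in 4 of them (Psma4, Psmb10, Psmd9 and Psme3), 9.52%, against 8.09% of 27025 genes and 12.2% of the 8763 of these that were tested in IL7 cultures. The ETS motif was in 23 of 42 windows (54.8%), against 18.8% of all genes and 36.8% of the tested ones. The NRF1-type motif was in 6 (Psmb5, Psmb6, Psmc6, Psmd9, Psmd12 and Psme4), 14.3% against 14% and 16.9%. A pair of GAAA copies spaced by 2 bases, the repeat that interferon regulatory factors bind, was in 5 (Psmb3, Psmd4, Psmd9, Psme1 and Psmg4), 11.9% against 3.99% and 3.71%. These are matches of letters within a window and carry no test. Their link to the changes below was not tested. Psma8, Psmb1, Psmb2, Psmb7, Psmc3, Psmd3, Psmd7 and Psmg2 were not searched here.

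Libraries held 5110746 to 10201113 reads assigned to genes, and values are normalised reads, which are the reads of a gene scaled by the library's size factor. A value of 0 allows up to 3 reads, or 2.15 to 4.12 normalised reads, by counting error alone. The animal behind each library is not labelled, so p-values measure the spread between these libraries, which may be technical in part. Where the pair was a block, as in IL7 cultures, they measure the spread of the differences within pairs. The 7 markers of precursor B cells summed to 17267 to 23606 in IL7 WT and 16150.5 to 19102 in IL7 T58A libraries, but to 14.7 to 36.3 and 17.6 to 58.8 in LPS libraries, where Vpreb2 was at 0. Xist was high only in WT 1 and WT 2 of each culture, so sex changed with genotype in pairs 1 and 2 but not in pair 3, and IL7 WT 2 also held reads of Y-linked genes. The targeted base change cannot be read from gene counts.

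Most proteasome genes were well expressed, and levels per kilobase of the longest transcript differed widely between subunits. On a scale common to all 12 libraries, high mean levels per kilobase in IL7 WT cells were those of Psmb4, a β-ring subunit (1678 ± 125, SD, n = 3), and the α-ring subunits Psma1 (1554 ± 127) and Psma6 (1515 ± 149). Psmb8, the inducible chymotrypsin-like subunit, stood at 1481 ± 115, within the spread of these. In LPS WT cells high levels were those of Psme2b (1821 ± 213) and the 19S deubiquitinase gene Psmd14 (1703 ± 252), with Psmb8 at 1424 ± 139. The order depends on the transcript length taken: with the principal transcript of APPRIS, among genes that have one, the highest means were those of Psma7 (2024), Psmb8 (1735) and Psmb4 (1678) in IL7 WT and of Psme1 (1866) and Psme2b (1821) in LPS WT cells. Psmb11, the thymic subunit, was at 0 in all libraries but IL7 WT 3 (1.1 normalised reads) and LPS WT 3 (1.97), and did not pass the filter on low values. Psma8, an α-ring gene known from testis, gave 6.5 to 33.0 normalised reads in IL7 libraries and 0 to 0.864 in LPS libraries, where it did not pass the filter.

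Reads of some members are hard to assign, because 11 of the 50 genes share over 10% of their 50-base windows with other genes or pseudogenes. The share was 69.3% for Psme2b, 59.3% for Psme2, 57.1% for Psmb5, 55.4% for Psma5 and 31.5% for Psma4, and lower for Psmc3ip, Psmd2, Psma3, Psmc1, Psmd13 and Psmb3. Psme2, a subunit of the interferon-induced cap, had 68.7 to 98.0 normalised reads in IL7 and 92.4 to 131 in LPS libraries, while its copy Psme2b had 942 to 1100.0 and 993 to 1497. Values of these 11 genes are uncertain as levels.

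In IL7 cultures T58A cells had less Psmb9 and more Psme3 and Psmd1 than WT cells, and the other 46 tested genes did not pass the test. Of 49 tested genes, 2 were called higher and 1 lower at a Benjamini-Hochberg adjusted p under 0.05 (limma, pair as a block, adjusted over 11604 genes), where 6.41% of all tested genes were called higher and 6.31% lower. Neither share of the proteasome genes was larger than that. Their median log2 change was 0.02, against -0.01 over all tested genes. Without the pair block no gene of the 11604 was called (0%), by limma or by edgeR. In that limma fit 6 of the 49 proteasome genes had an unadjusted p under 0.05, where 16.9% of all genes did. Of all genes called, 50.4% were higher, and 39.9% after scaling to total reads.

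**Figure D1:**
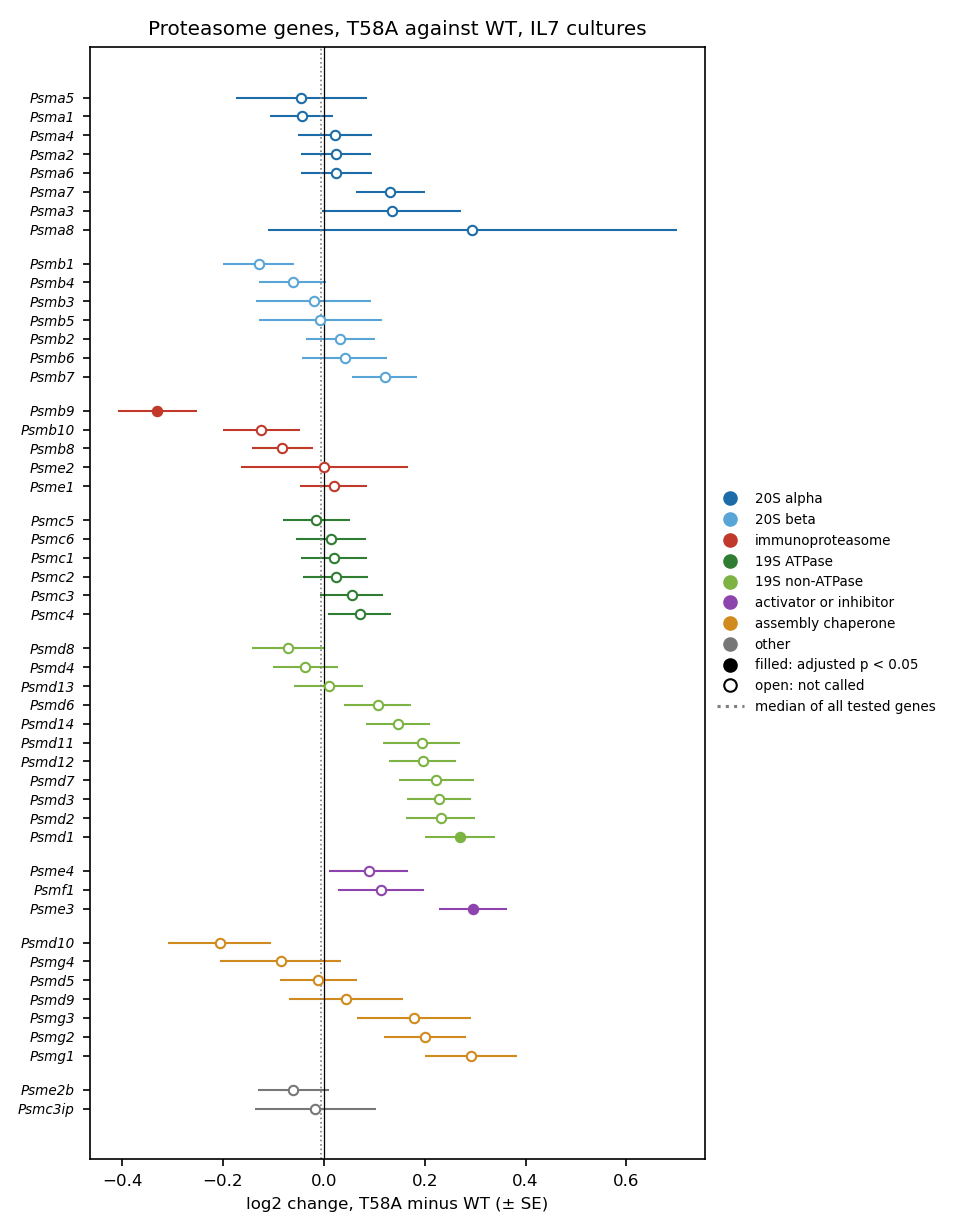
Log2 change (T58A minus WT, IL7 cultures) of the 49 tested proteasome genes, with SE from limma, grouped by subunit class. Filled points are called at an adjusted p under 0.05 (Psmb9, Psme3 and Psmd1), and the dotted line is the median of all tested genes. Constitutive core genes gather around 0, except Psma8 (0.29 ± 0.40), which has few reads. Of the non-ATPase cap genes, 9 of 11 lie to the right of 0.

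Among the immunoproteasome genes, Psmb9, the inducible subunit that replaces Psmb6, fell. It had 1402, 1245 and 1532 normalised reads in WT 1, 2 and 3 and 1062, 1122 and 1129 in T58A 1, 2 and 3. Every T58A library lay below every WT library. The log2 change was -0.33 ± 0.08 (SE), a fold of 0.796, with an adjusted p of 0.0310. Within pairs it was -0.40, -0.15 and -0.44, the last from the pair of equal sex. The adjusted p was 0.145 without pair 3 and 0.191 without the block. Psmb10, the inducible trypsin-like subunit, had 1485, 1137 and 1328 in WT and 1277, 1164 and 1166 in T58A, which overlap (log2 change -0.12 ± 0.08, adjusted p = 0.307).

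Psmb8 had 3377, 3267 and 3760.2 in WT and 3240.4, 3139.8 and 3437 in T58A libraries, which overlap (log2 change -0.08 ± 0.06, adjusted p = 0.397). Psme1, the partner of Psme2 in the interferon-induced cap, had 2153, 1871 and 2112 against 2179, 2018 and 2015, again overlapping (0.02 ± 0.07, adjusted p = 0.876). For Psme2 the log2 change was 0.00 ± 0.17. The 5 genes had a median change of -0.08.

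Of 7 other genes of antigen presentation and its interferon control, 3 fell in T58A cells and 0 rose. Over all tested genes 6.31% were called lower and 6.41% higher, and without the pair block no gene was called. The 3 were B2m, the light chain of MHC class I (-0.46 ± 0.06, adjusted p = 0.00531), Tap1, the peptide transporter gene beside Psmb9 (-0.40 ± 0.06, 0.00831), and the interferon regulatory factor gene Irf1 (-0.32 ± 0.07, 0.0241). Tap2 (-0.22 ± 0.07), Erap1 (0.21 ± 0.07), Nlrc5 (0.11 ± 0.07) and Irf8 (0.05 ± 0.09) did not pass. The median of the list was -0.22, against -0.01 over all tested genes. Tapbp was not analysed here for IL7 cultures.

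Markers of other cells were summed in each IL7 library. The 5 mature B-cell markers summed to 3985 to 12709 normalised reads in WT and 2686 to 7349 in T58A libraries, 4 dendritic markers to 40.7 to 149 and 12.4 to 47.5, and 10 myeloid markers to 499 to 1723 and 337 to 767, with none of these genes at 0 in a whole group. The 6 plasmablast markers summed to 8794 to 10169 and 9078 to 9589, the 7 T and NK cell markers to 22.6 to 38.1 and 6.66 to 31.0, the 4 stromal markers to 9.91 to 24.1 and 8.56 to 17.2, and the 5 erythroid markers to 0.928 to 7.25 and 3.10 to 4.30, with the 2 globin genes at 0 in all of these libraries. Their part in the change of Psmb9 was not tested. In bulk RNA, fewer cells of a type and less RNA per cell cannot be told apart.

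No gene of the constitutive core passed the test. Of its 15 genes 0 were called and 0 had an unadjusted p under 0.05, where 30.1% of all tested genes did, and the median change was 0.02. The constitutive catalytic genes had log2 changes of 0.04 ± 0.08 (Psmb6), 0.12 ± 0.06 (Psmb7) and -0.01 ± 0.12 (Psmb5). In the α ring the smallest p in each direction were those of Psma7 (0.13 ± 0.07) and Psma3 (0.13 ± 0.14) upward and Psma1 (-0.04 ± 0.06) and Psma5 (-0.04 ± 0.13) downward. In the rest of the β ring, Psmb2 gave 0.03 ± 0.07, Psmb1 -0.13 ± 0.07 and Psmb4 -0.06 ± 0.07.

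The 6 ATPases of the 19S cap, the ring that unfolds substrates, had a median change of 0.02 and ran from -0.01 ± 0.07 (Psmc5) to 0.07 ± 0.06 (Psmc4), with Psmc3 at 0.06 ± 0.06. The 11 non-ATPase subunits, which form the scaffold, ubiquitin receptors and deubiquitinase, had a median of 0.19, and 9 of them had a positive change. Of the 11, 1 was called and 7 had an unadjusted p under 0.05, beside the 30.1% of all tested genes.

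Psmd1, the large scaffold subunit of the cap base, rose. It had 2344, 2672 and 3300.0 normalised reads in WT and 3045, 3300.0 and 3605 in T58A. T58A was higher in each pair, by 0.38, 0.30 and 0.13 on the log2 scale, the last from the pair of equal sex. The groups overlapped, however, and WT 3 was level with T58A 2. The log2 change was 0.27 ± 0.07 (adjusted p = 0.0399). Leaving out pair 1, 2 or 3 ended the call (adjusted p = 0.0585, 0.152 and 0.0514), as did scaling to total reads (0.0576) and omitting the block (0.335). Psmd3, a lid subunit, had 2544, 2500.0 and 2763 against 2789, 3009.5 and 3367, without overlap, and lay just outside the threshold (0.23 ± 0.06, adjusted p = 0.0515). Downward the smallest p were those of Psmd8 (-0.07 ± 0.07) and Psmd4 (-0.04 ± 0.06).

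Psme3, the nuclear activator that works without ubiquitin and whose E-box and ETS motif are printed above, rose too. WT libraries had 3215, 3589.7 and 4181 normalised reads and T58A libraries 4245, 4476 and 4702. The groups did not overlap. The log2 change was 0.30 ± 0.07, a fold of 1.23, with an adjusted p of 0.0267. Within pairs it was 0.40, 0.32 and 0.17, the last from the pair of equal sex. The adjusted p was 0.111 without pair 2 and 0.242 without the block. The proteasome inhibitor gene Psmf1 gave 0.11 ± 0.09, and Psme4, the large activator known from sperm, 0.09 ± 0.08.

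The 7 assembly chaperones had a median change of 0.04. Psmg1 had 373, 358 and 416 in WT and 446, 479 and 477 in T58A, without overlap (0.29 ± 0.09, adjusted p = 0.0697), and its partner Psmg2 gave 0.20 ± 0.08. Psmd10 gave -0.21 ± 0.10 and Psmg4 -0.09 ± 0.12. Over all 49 tested genes, the groups did not overlap for 6 higher and 2 lower genes, where 12.9% and 10.8% of all tested genes did so.

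In the authors' deposited table Psme3 had a log2 fold change of 0.28 with an adjusted p of 0.00971, Psmd1 of 0.25 with 0.0331 and Psmb9 of -0.30 with 0.0307.

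The wider ubiquitin pathway was read from a list of 28 genes that feed or regulate the proteasome. In T58A cells 5 rose and 1 fell, where 6.41% and 6.31% of all tested genes did, and without the pair block no gene was called. The 5 were the ubiquitin-activating enzyme Uba1 (0.32 ± 0.06), the shuttle receptors Rad23b (0.32 ± 0.06) and Ubqln4 (0.26 ± 0.07), the VCP cofactor Nploc4 (0.24 ± 0.06), and the proteasome adaptor gene listed as AI314180 (0.22 ± 0.06). Ubb, a polyubiquitin gene, fell (-0.38 ± 0.07, adjusted p = 0.0177). Nfe2l1, which codes for NRF1, gave 0.12 ± 0.07 and did not pass. The median of the list was 0.05.

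In LPS cultures no proteasome gene passed the test between T58A and WT. Of 48 tested genes 0 were called (limma), as of all 11291 (0% higher and 0% lower), and DESeq2 and edgeR also called 0 of them. At an unadjusted p under 0.05 there were 0 of the 48 and 2.52% of all genes. With the unnumbered columns paired in column order, 4 genes of 11291 were called (0.0354%), none of them a proteasome gene. In that fit 3 of the 48 had an unadjusted p under 0.05, where 16.7% of all genes did. The median SE of the members was 0.225 without the block and 0.0962 with it, against 0.0939 and 0.0706 in IL7 cultures.

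Psmb9 had 1572, 1553 and 1522 normalised reads in WT 1, 2 and 3 and 1492, 1321 and 1476 in the first unnumbered column, the second unnumbered column and T58A 3. All T58A values lay below all WT values, with a log2 change of -0.12 ± 0.14. Psme4 gave 2083, 1617 and 1919.6 against 1596, 1314 and 1616.3, again without overlap (-0.31 ± 0.16, the largest change of the 48). These 2 genes were lower without overlap and 0 were higher, where 3.3% of all tested genes were lower and 3.1% higher in that way. Psme3 had 1014, 1052 and 1343 against 1148, 1164 and 1378, which overlap (0.12 ± 0.16). With columns paired in their order, Psmb9 was lower in each pair (-0.08, -0.23 and -0.04). Psme3 was higher in each (0.18, 0.15 and 0.04), and Psmd1 was mixed (0.10, -0.27 and -0.002). The share of all genes with 1 direction in every pair was not counted.

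Log2 changes of the other immunoproteasome genes were -0.10 ± 0.17 (Psmb8), -0.05 ± 0.21 (Psmb10), 0.12 ± 0.17 (Psme1) and 0.24 ± 0.20 (Psme2). The constitutive catalytic genes gave -0.08 ± 0.20 (Psmb6), 0.08 ± 0.26 (Psmb7) and -0.12 ± 0.23 (Psmb5). Medians were 0.01 for the core, -0.08 for the ATPases, -0.01 for the non-ATPase cap genes and 0.00 for the chaperones, against 0.01 over all tested genes. In each other class the genes with the smallest p per direction are given. In the α ring, which gates the core, they were Psma3 (0.20 ± 0.36), Psma7 (0.07 ± 0.22), Psma6 (-0.06 ± 0.22) and Psma1 (-0.06 ± 0.30). In the rest of the β ring they were Psmb3 (0.19 ± 0.27), Psmb1 (0.05 ± 0.19), Psmb2 (-0.13 ± 0.25) and Psmb4 (-0.07 ± 0.25). In this fit, which has no pair block and larger SEs, all 8 of these core genes had a change smaller than its SE. With columns paired in their order, Psmb3 was higher in each pair (0.28, 0.14 and 0.15). Psmb4 was lower in each (-0.02, -0.13 and -0.06), as was Psmb6 (-0.06, -0.06 and -0.10). The other core genes named here were mixed. Among the ATPases they were Psmc6 (0.10 ± 0.21), Psmc4 (-0.19 ± 0.29) and Psmc1 (-0.13 ± 0.27), and among the non-ATPase cap genes Psmd3 (0.19 ± 0.16), Psmd11 (0.11 ± 0.18), Psmd14 (-0.19 ± 0.18) and Psmd13 (-0.16 ± 0.29). Chaperones gave Psmg2 (0.20 ± 0.20), Psmg1 (0.12 ± 0.21), Psmg3 (-0.15 ± 0.30) and Psmd10 (-0.05 ± 0.19), and the inhibitor gene Psmf1 gave 0.13 ± 0.17. None of the 28 pathway genes and none of 8 antigen presentation genes was called, the latter running from -0.32 ± 0.27 (B2m) to 0.12 ± 0.19 (Irf8).

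Within the LPS groups the proteasome genes moved together between libraries. In WT 2 all 14 tested core genes lay below their mean over the 6 libraries, with a median deviation of -0.37 on the log2 scale, and in the second unnumbered T58A column all 14 did so too (-0.38). In WT 1 and in the first unnumbered column none of the 14 did, with medians of 0.20 and 0.40. Psma1 shows it, with 2029, 1092 and 1862 normalised reads in WT 1, 2 and 3 and 2214, 1059 and 1543 in the first unnumbered column, the second and T58A 3. Immunoproteasome genes had medians of -0.10 and -0.23 in the low libraries. The median over all genes with a mean of at least 10 was 0.00 in both, but scaling by size factors holds it near 0 in every library. Of these 11249 genes, 5600 lay below their mean in WT 2 and 5644 in the second unnumbered column. The counts were 5591 in WT 1 and 5581 in the first unnumbered column. Whether other sets of genes moved as much was not tested.

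**Figure D2:**
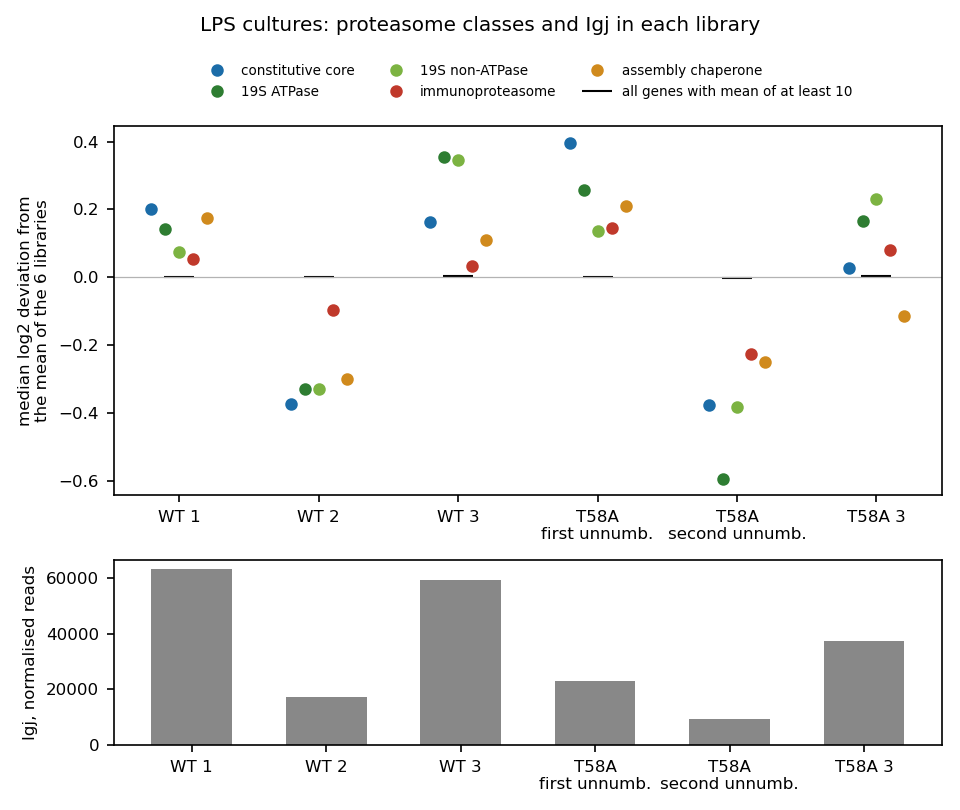
Upper panel: for each LPS library, the median over the tested genes of 5 proteasome classes of the log2 deviation from the mean of the 6 libraries, with the same over all genes as a black bar. Lower panel: normalised reads of Igj, the antibody joining chain. WT 2 and the second unnumbered T58A column lie below 0 in all 5 classes and have the lowest Igj, 17254 and 9409. Not all plasmablast markers followed Igj.

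A transcript of antibody-secreting cells, Igj, was lowest in the same libraries. It had 17254 normalised reads in WT 2 and 9409 in the second unnumbered column, against 23218 to 63378 in the other 4. The 6 plasmablast markers summed to 44918 to 109284 in WT and 28413 to 73227 in T58A libraries, with no marker at 0 in a whole group. The plasmablast markers Sdc1 and Mzb1 were also lowest in these libraries, but Xbp1, Prdm1 and Irf4 did not follow fully. Xbp1, the secretory regulator, had 5514 in WT 2 and 5432 in the first unnumbered column, whose core genes were high. Prdm1 and Irf4 were lowest in that first column (1385 and 4323). They had 1469 and 5041 in the second unnumbered column and 2196 and 6852 in WT 2. The part of these transcripts in the proteasome values was not tested.

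The T58A effect itself was not shown to differ between the cultures. Over all 12 libraries 0 of 49 genes passed the test of the difference (limma interaction, 0% of 12184 genes higher and 0% lower), DESeq2 and edgeR called 0 of the 49, and 1 had an unadjusted p under 0.05, where 4.38% of all genes did. That was Psme4, with a difference (LPS minus IL7) of -0.41 ± 0.18 (adjusted p = 0.997). Psmd14, the 19S deubiquitinase, had log2 changes of 0.14, 0.12 and 0.18 in the 3 IL7 pairs and of -0.19, -0.14 and -0.23 in the 3 LPS pairs in column order. It was thus higher in T58A in each IL7 pair and lower in each LPS pair, and the difference was -0.35 ± 0.20 (limma adjusted p = 0.997). Psmd14 was picked after its values were seen, and the share of all genes with such signs was not counted. For Psmb9 the difference was 0.20 ± 0.15, for Psme3 -0.19 ± 0.20 and for Psmd1 -0.34 ± 0.42. The other immunoproteasome genes gave -0.03 ± 0.20 (Psmb8), 0.06 ± 0.25 (Psmb10), 0.09 ± 0.19 (Psme1) and 0.22 ± 0.28 (Psme2), and the constitutive catalytic genes -0.13 ± 0.23 (Psmb6), -0.05 ± 0.29 (Psmb7) and -0.13 ± 0.28 (Psmb5). With pairs as blocks within each culture 349 of 12184 genes were called, none of them a proteasome gene, and the smallest adjusted p of a member was 0.0735.

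Differences between the cultures were larger. In WT cells, 7 proteasome genes were higher and 19 lower in LPS-treated spleen B cells than in IL7-treated marrow B cells (limma on the scale common to all 12 libraries). Of all 12184 tested genes 28.8% were higher and 29.7% lower, and 49 members were tested. Their median log2 change was -0.31, against -0.03 over all genes. Organ, stage of B-cell development, stimulus and table differ together here and cannot be told apart. The count of lower genes was 9 without LPS WT 2, which had the low core values above, 12 without IL7 WT 1 and 9 without IL7 WT 3. Scaling to total reads moved the median of all genes to -0.16 and that of the members to -0.44, and the share of higher genes among all called from 49.2% to 41.0%.

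**Figure D3:**
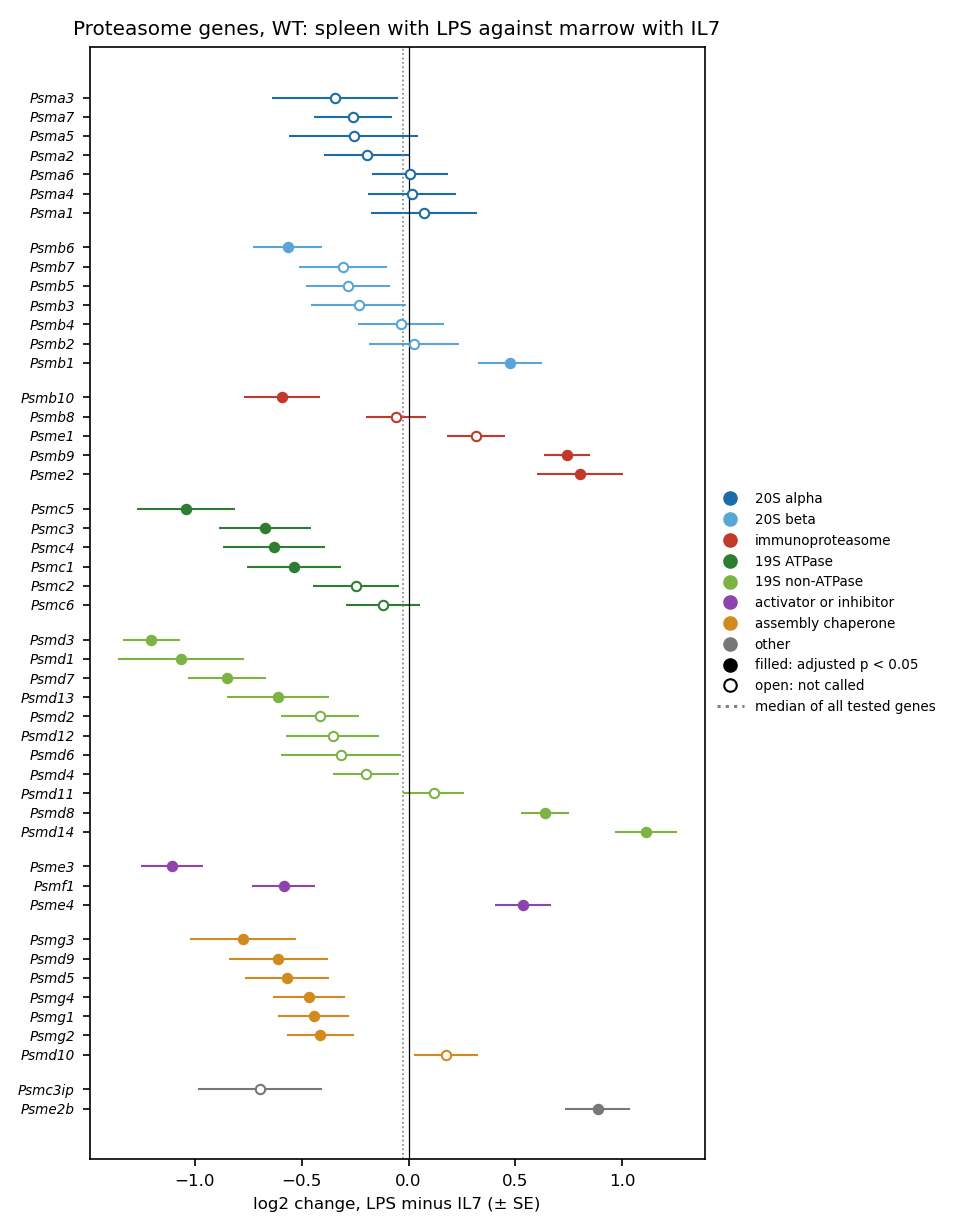
Log2 change (LPS minus IL7, WT libraries) of 48 proteasome genes with SE from limma, grouped by subunit class, filled where the adjusted p was under 0.05. Psma8 (-3.62) is left out, and Psmb11 was not tested. All 6 ATPases and 6 of 7 assembly chaperones lie to the left of 0, while immunoproteasome genes lie on both sides.

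Immunoproteasome genes did not move in 1 direction. On the common scale Psmb9 had 1129, 1021 and 1253 normalised reads in IL7 WT and 1907, 1902 and 1866 in LPS WT libraries, without overlap (log2 change 0.74 ± 0.11, a fold of 1.67, adjusted p = 6.07e-05). Psmb10 fell, from 1195, 933 and 1086 to 725, 644 and 757 (-0.59 ± 0.18, adjusted p = 0.0110). Psmb8 had 2717, 2681 and 3077 against 2544, 2582 and 3021, which overlap (-0.06 ± 0.14, adjusted p = 0.738).

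Psme1 had 1733, 1536 and 1728 in IL7 WT and 2224, 1903 and 2098 in LPS WT libraries, without overlap, but did not pass (0.32 ± 0.13, adjusted p = 0.0582), whereas DESeq2 called it (0.0479), as did limma without LPS WT 2 or either unnumbered T58A column (0.0280 to 0.0492). Psme2 rose by 0.80 ± 0.20 and its copy Psme2b by 0.88 ± 0.15 (limma adjusted p = 0.00375 and 0.000240). Of the 7 antigen presentation genes 4 were higher and 0 lower, where 28.8% and 29.7% of all tested genes were. The 4 were B2m (1.48 ± 0.21), Tap1 (1.08 ± 0.13), Irf1 (0.86 ± 0.16) and Irf8 (0.51 ± 0.16). Tap2 (0.08 ± 0.14), Erap1 (0.09 ± 0.13) and Nlrc5 (0.17 ± 0.17) did not pass.

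**Figure D4:**
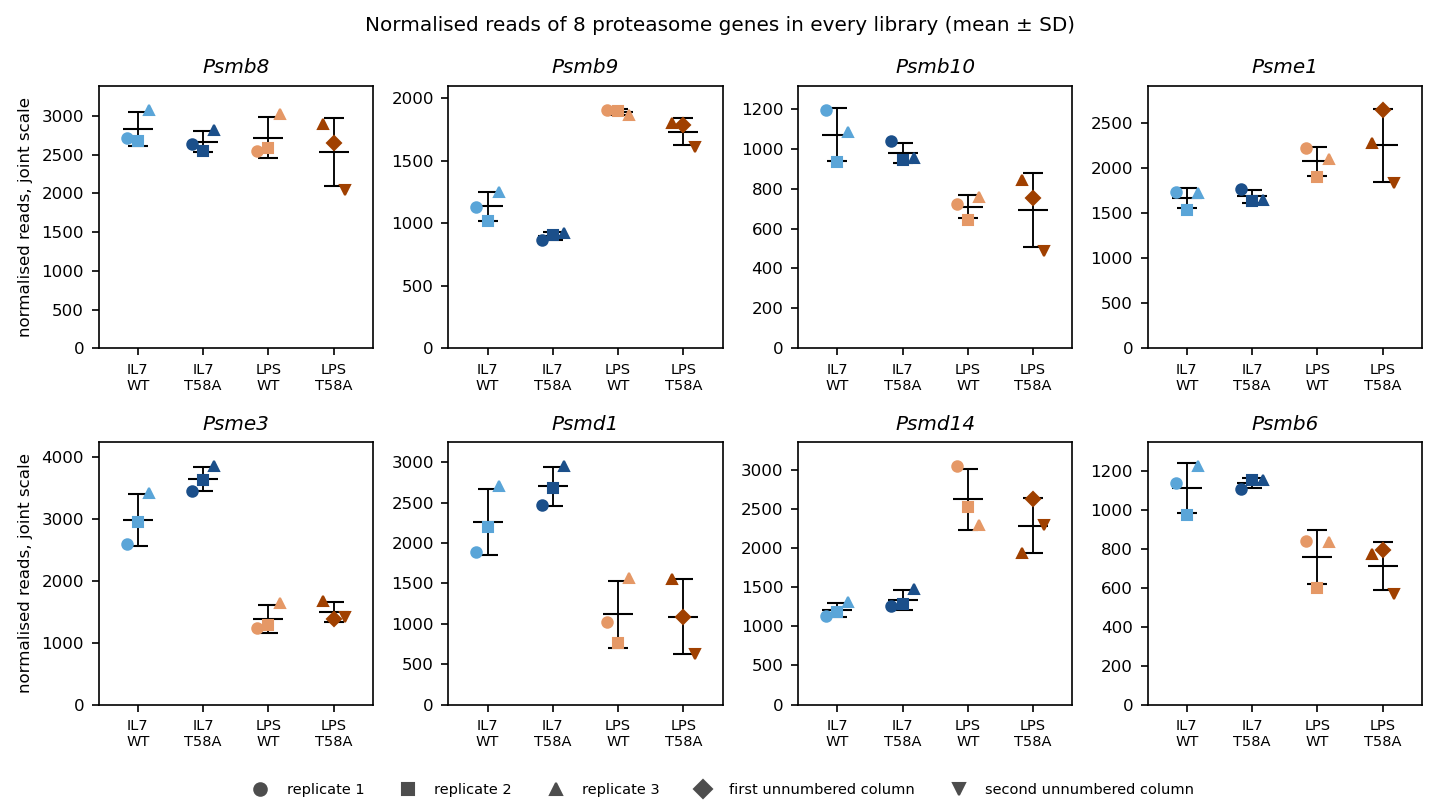
Normalised reads on the scale common to all 12 libraries for 8 proteasome genes, 1 point per library with the mean and SD of each group of 3. Psmb9 and Psmd14 are higher in all LPS libraries than in any IL7 library, Psmb10, Psme3, Psmd1 and Psmb6 are lower in all of them, and Psmb8 overlaps between the cultures.

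In the core, counted with the testis gene Psma8, 1 of 15 genes was higher and 2 were lower (Psmb6 and Psma8), where 28.8% and 29.7% of all tested genes were. Psmb6, the constitutive caspase-like subunit whose promoter ends in the NRF1-type motif printed above, fell from 1138, 971 and 1224 to 838, 597 and 834 (-0.57 ± 0.16, adjusted p = 0.00870). Psmb1, a non-catalytic β subunit, rose by 0.47 ± 0.15 (adjusted p = 0.0145, but 0.0634 without LPS WT 1 and 0.0577 after scaling to total reads). Psma8 was lower, by an amount that depends on the pseudocount because LPS libraries held at most 1 read of it. Psmb7 (-0.31 ± 0.21) and Psmb5 (-0.28 ± 0.20) did not pass, and neither did Psma1 (0.07 ± 0.25), Psma4 (0.02 ± 0.21), Psma7 (-0.26 ± 0.18), Psmb2 (0.03 ± 0.21), Psmb3 (-0.23 ± 0.22) or Psmb4 (-0.04 ± 0.20).

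The cap held changes in both directions. Psmd14 rose from 1129, 1189.9 and 1306 to 3050.3, 2532 and 2292 (1.11 ± 0.14, a fold of 2.16, adjusted p = 2.18e-05). Psmd8, a lid subunit, rose by 0.64 ± 0.11. Psmd3 fell from 2047, 2051 and 2260.4 to 798, 914 and 1065 (-1.20 ± 0.13, a fold of 0.435, adjusted p = 6.11e-06). None of these 3 overlapped between the cultures.

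Psmd1 (-1.07 ± 0.30), the lid subunit Psmd7 (-0.85 ± 0.18) and Psmd13 (-0.61 ± 0.24) fell too. Among the ATPases 4 of 6 fell, where 29.7% of all tested genes did: Psmc5 (-1.04 ± 0.23), Psmc3 (-0.67 ± 0.22), Psmc4 (-0.63 ± 0.24) and Psmc1 (-0.54 ± 0.22). Adjusted p-values were 0.0161 for Psmc3, 0.0355 for Psmc4, 0.0402 for Psmd13 and 0.0490 for Psmc1 (limma), and these 4 genes were no longer called without LPS WT 2 (0.0795 to 0.212) or without IL7 WT 3 (0.0537 to 0.126). Psmc1, Psmc4 and Psmd13 also lost their calls without IL7 WT 1, IL7 WT 2 or LPS WT 1 (0.0540 to 0.0831), and Psmc1 and Psmd13 without any 1 of the IL7 T58A libraries (0.0502 to 0.0631). Psmc1 lost its call in 11 of 19 alternatives, among them edgeR, no filter and a pseudocount of 0.5 (0.0501 to 0.0595).

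Psme3 fell from 2587, 2945 and 3421 to 1230.1, 1288 and 1646 (-1.11 ± 0.14, adjusted p = 2.38e-05), without overlap, and Psmf1 fell as well (-0.58 ± 0.15), while Psme4 rose by 0.53 ± 0.13. Assembly chaperones fell in 6 of 7 cases, where 29.7% of all tested genes did. The 6 ran from Psmg3 (-0.78 ± 0.25) to Psmg2 (-0.41 ± 0.16), with Psmd5 at -0.57 ± 0.20, and Psmd10 did not pass (0.17 ± 0.15). All 6 lost their call without LPS WT 2 (adjusted p = 0.0706 to 0.157) and without IL7 WT 3 (0.0545 to 0.118). Psmd5, Psmd9, Psmg1 and Psmg4 lost it without IL7 WT 1 (0.0548 to 0.0777), Psmg1 and Psmg2 without IL7 WT 2 (0.0537 to 0.0906), Psmd9 and Psmg1 without LPS WT 1 (0.0559 to 0.102), and Psmd5, Psmg2 and Psmg4 without LPS WT 3 (0.0626 to 0.112). Psmg2 lost it without IL7 T58A 1 or 2 (0.0503 to 0.0510), and Psmd9 with edgeR (0.0528).

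Of the 28 pathway genes 3 rose and 7 fell between the cultures, where 28.8% of all tested genes were higher and 29.7% lower. Nfe2l1 rose (1.25 ± 0.21), as did the ubiquitin-activating enzyme Uba6 (0.60 ± 0.19) and Ublcp1, a proteasome phosphatase (1.09 ± 0.27). Uchl5 (-1.29 ± 0.23) and Usp14 (-0.96 ± 0.16), both deubiquitinases of the cap, fell, as did the ubiquitin receptor Adrm1 (-0.94 ± 0.19). The other 4 were Ubqln4 (-1.08 ± 0.15), Ubqln2 (-1.07 ± 0.18), Nfe2l2 (-0.68 ± 0.13) and AI314180 (-0.52 ± 0.12). The median of the list was -0.22.

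Transcripts of the catalytic core were followed as ratios of the inducible to the constitutive gene of each active site, in reads per kilobase within a library, so that the scaling between libraries cancels. Protein was not measured. At the position of Psmb6, the ratio of Psmb9 over Psmb6 was 0.332, 0.352 and 0.343 in IL7 WT 1, 2 and 3. It was 0.261, 0.264 and 0.269 in IL7 T58A 1, 2 and 3. The groups lay apart, with means of 0.342 ± 0.010 and 0.265 ± 0.00388 (SD, n = 3). The log2 difference was -0.37, with an exact two-sided permutation p of 0.1, the smallest that 3 against 3 libraries allow, or 0.3 adjusted over the 3 sites. In LPS cells the ratio was 0.762, 1.07 and 0.75 in WT and 0.754, 0.947 and 0.782 in T58A, which overlap (exact permutation p = 0.9).

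**Figure D5:**
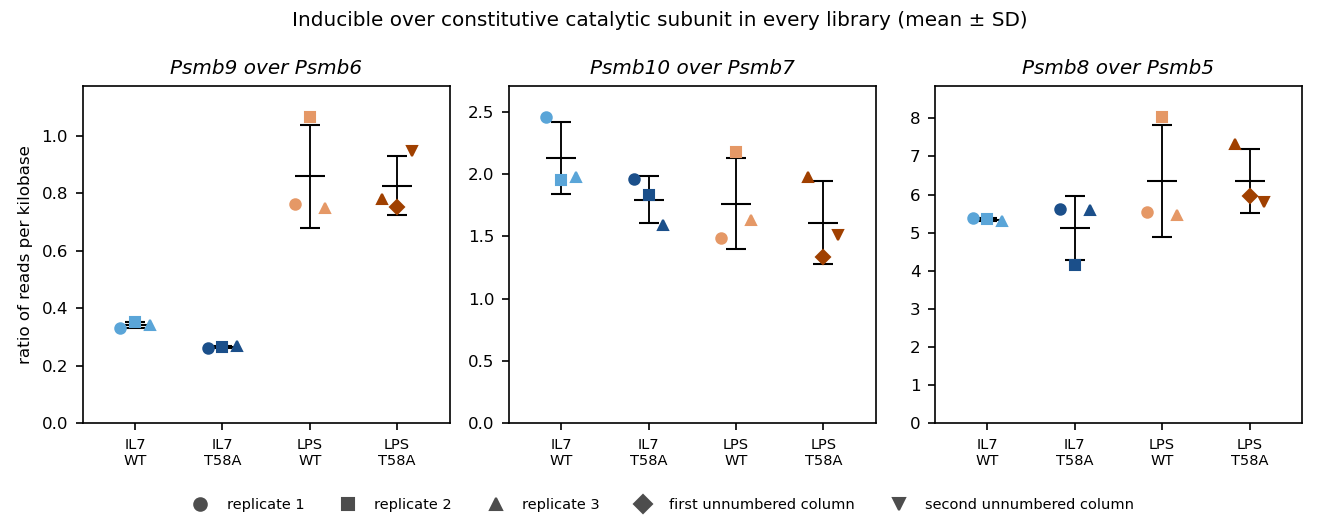
Ratio of reads per kilobase of the inducible to the constitutive subunit gene for the 3 active sites, 1 point per library with the mean and SD of each group of 3. Psmb9 over Psmb6 is lower in the IL7 T58A libraries (0.261 to 0.269) than in IL7 WT (0.332 to 0.352) and higher in all LPS libraries (0.75 to 1.07). The ratios at the other sites overlap between genotypes.

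For the trypsin-like site, Psmb10 over Psmb7 was 2.46, 1.95 and 1.98 in IL7 WT and 1.96, 1.84 and 1.59 in T58A, which overlap (log2 difference -0.24, exact permutation p = 0.2). For the chymotrypsin-like site, Psmb8 over Psmb5 was 5.39, 5.35 and 5.30 against 5.61, 4.15 and 5.60 (log2 difference -0.08, exact permutation p = 1.0). In LPS cells these differences were -0.13 and 0.02 (exact permutation p = 0.6 and 1.0). The size of each ratio depends on the transcript length taken. With the principal transcript of APPRIS, Psmb9 over Psmb6 was 0.603 in IL7 WT and 1.51 in LPS WT cells, and Psmb10 over Psmb7 was 0.867 and 0.718. Differences on the log2 scale do not depend on it.

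Between cultures, over both genotypes, Psmb9 over Psmb6 was 2.78-fold higher with LPS, with all 6 LPS libraries above all 6 IL7 libraries (log2 difference 1.47, exact permutation within genotype p = 0.005, the smallest it can give, 0.0075 adjusted over 3 sites). Psmb8 over Psmb5 was 1.21-fold higher (log2 difference 0.27, exact permutation p = 0.005, 0.0075 adjusted). That call was lost without IL7 WT 1, IL7 WT 2, IL7 WT 3, IL7 T58A 2 or LPS T58A 3, each left out alone (adjusted exact permutation p = 0.075 to 0.1275). Psmb10 over Psmb7 differed by -0.23 (exact permutation p = 0.125). As a share of the reads per kilobase of these 6 genes, the inducible ones made up 59.1% to 60.2% in IL7 WT, 55.4% to 57.9% in IL7 T58A, 63.2% to 71.2% in LPS WT and 63.5% to 67.7% in LPS T58A libraries. The IL7 T58A range lay below the IL7 WT range, and both lay below the LPS ranges, which overlap. Psmb5 enters these shares with the same uncertainty of its level.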

How the data were processed

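RNA of 12 libraries was made with TruSeq RNA v2, a kit that does not mark strand. Per the submitters' processing notes, bcl2fastq 1.8.4, TopHat2 2.1.0, HTSeq 0.6.1 and DESeq2 were used, with mm10. The authors deposited a signal for each gene in every library. Division by the step between low values turned 100% of them into whole reads within 0.001, so each library had been scaled by 1 size factor. They also deposited log2 fold changes, p-values and adjusted p-values. 

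The test was limma 3.58.1 (trend, R 4.3.3) on log2 of the value plus 1, with Benjamini-Hochberg adjustment over all genes tested. Genes were kept by filterByExpr of edgeR 4.0.16 (at least 10 reads, at least 15 in total). Changes are on this log2 scale and understate those of low genes. IL7 titles number the pairs, and same-numbered libraries deviated together (correlations 0.41, 0.15 and 0.40), so the pair was a block there. DESeq2 1.42.0 with that block gave 94.0% of the authors' IL7 p-values within 1%, and 15.8% without it. In the LPS table column order gave 99.7% and exchanged columns 17.0%, but 1 header stands over 2 columns, so the LPS test had no block. The interaction and the culture contrast were fitted over all 12 libraries on recovered reads with common size factors.

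GENCODE M21 on GRCm38 held 23655 of the 24015 symbols (98.5%) and may differ from the authors' annotation. No replicate pair agreed within sampling noise. Ratios were tested by exact permutation, two-sided. Without strand, reads of overlapping genes cannot be told apart.

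Named were the 5 immunoproteasome and 3 constitutive catalytic genes, in each other class the 2 genes with the smallest p per direction, called pathway genes and all antigen presentation genes. A gene of each of these lists is not reported here. Other genes named were chosen after their values were seen. They were Nfe2l1 in IL7 cultures, Psme4, further called members between cultures, Igj, Xbp1 and the other plasmablast markers. The same holds for Psma1 by library, and for Psmd14, Psmb3, Psmb4, Psmb6, Psmb9, Psme3 and Psmd1 by pair. The members and the lists were chosen with earlier results of these data known. Alternatives were other scalings, no filter, pseudocounts of 0.5 and 5, edgeR, DESeq2, the block, gene lengths and leaving out libraries. Scripts were tested on simulated data. Plots were made in Python 3.11.15 with matplotlib 3.10.9.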

Additional observations from a re-analysis of the deposited data

How the results depend on the processing

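In IL7 cultures the calls rested on the pair block. Without the replicate block limma called 0 proteasome genes higher and 0 lower, as did edgeR without the block and limma without both the block and IL7 WT 2, which were added after seeing the data. Leaving out pairs gave 0 to 3 genes higher and 0 to 1 lower, and scaling to total reads gave 1 higher. TMM, no filter, both pseudocounts, edgeR and DESeq2 with the block gave 2 higher and 1 lower. In LPS cultures and for the interaction the counts were 0 in each alternative run, the replicate block included, although LPS libraries in column order deviated together (correlations 0.34, 0.66 and 0.54). Between cultures, leaving out single libraries gave 6 to 8 genes higher and 9 to 21 lower. Psmb8 over Psmb5 between cultures ranged from 0.18 to 0.32 on the log2 scale over single libraries left out, and Psmb10 over Psmb7 from -0.31 to -0.17, called only without LPS WT 2 (adjusted exact permutation p = 0.045). The IL7 genotype difference of Psmb8 over Psmb5 ranged from -0.15 to 0.069. For named genes, 915 of 988 values under an alternative kept direction (where called) and side of the threshold, 69 lost and 4 gained a call, and 0 reversed. The 915 include genes that were not called in any LPS or interaction fit. Of the IL7 calls, Psmb9 and Psme3 each kept theirs in 9 alternatives and lost it in 4. Psmd1 kept its call in 6 and lost it in 7. The cause of these losses was not tested.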
